A study of Homo sapiens with 197 samples.

Results

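The mitotic and checkpoint kinase wells were the 8 wells of a kinase screen whose label begins with NEK or is PLK1, AURKA, TTK, CHEK1 or MELK. They made up 4.37% of the kinase lanes compared here and 4.06% of all lanes of the series. All other kinase wells served as the comparison, without the HK1 lane and the second lanes of PIK3CG and PTK2. The cells were IMR90, a non-transformed human lung fibroblast line, and the screen asked which activated kinases change the expression of genes that are normally restricted to tissues such as testis or placenta. Each kinase carried a myristoylation signal and a Flag tag, was delivered by a retroviral vector to 1 well, and RNA was harvested after 4 days. The IMR90 controls were 2 wells titled IMR90, and the authors describe their control wells as infected with the empty vector. A further IMR90 lane, with a title ending -2, entered only an alternative fit. A myristoylated protein is brought to the cell membrane, whereas several of these kinases act at centrosomes, kinetochores or in the nucleus, and the activity of a single kinase was not measured. Since each kinase had 1 well, a p-value here measures the spread between wells of different kinases, and a value of 1 well has no replicate.

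The 8 kinases act at several steps of the cell cycle. PLK1 and AURKA drive mitotic entry and the building of the spindle, and TTK (also called MPS1) holds cells in mitosis until chromosomes are attached. CHEK1 stops the cycle when DNA replication is disturbed. NEK6 takes part in spindle formation and NEK11 in the response to DNA damage, while NEK3 belongs to the same NIMA-related family. MELK is a kinase found mostly in dividing cells.

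RNA was counted with the Nanostring assay, which counts the color barcodes of probes bound to RNA without amplifying it. The lanes held 75 probes, of which 57 endogenous rows and B2M were compared, 58 rows in all. Counts were scaled within each lane by the positive controls and then by PGK1, TBP and TUBB2A, and are called normalized counts. The total count was between 81505 and 179865 in the 8 wells, with the lowest in NEK6, and between 29629 and 340763 in the other kinase wells. The negative-control level, set for each lane at 2 SD above the mean of its 8 negative controls, was 14.2 to 43.99 counts in the 8 wells, with the highest in CHEK1. By the median over kinase wells, 17 of the 58 rows were above this level. Of the 42 tissue-restricted rows these were only ADAM12, ALAS1, ATAD2 and PLCZ1, and the other 38 were at or below the level by that median. Some of these 38 still passed it in many of the other kinase lanes, namely FMR1NB in 50.3%, ADAM2 in 41.7%, SPATA22 in 37.1% and DDX53 in 32% of them.

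The 15 endogenous rows that are not tissue-restricted carry names that could not be taken as identities. In the controls the row named ZBTB33 had 8.30 and 17.4 normalized counts, and in every kinase well it had 139.2 or more. The row named ZBTB38 was at 1509 and 6676 in the controls, at 4805 and 6227 in 2 lanes of SW39 (a cell line not compared here) and at most at 7.73 in a reference RNA. These 2 rows were read as the level of the delivered construct, but only the ZBTB33 row separated kinase wells from controls. The row named MyrFlag lay between 543 and 722 in the 8 wells and at 631 and 677 in the controls, so it did not separate kinase wells from controls. Rows named UHRF1, DNMT1, PPM1D, Tet1, Tet2, Tet3, KCNA1, ITPR2, PLA2R1, NeoR, PuroR and ZBTB4 keep the files' names here, and whether these names are displaced against the counts was not settled.

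The level of the construct differed widely among the 8 wells. The ZBTB33 row was at 326 normalized counts in TTK, 609 in CHEK1, 1742 in MELK, 6360 in NEK3, 12244 in NEK11, 13689 in NEK6, 16116 in PLK1 and 21167 in AURKA. The other kinase wells ran from 139.2 to 106624 with a median of 21931, and all 8 wells lay below that median. The groups overlapped, since the 8 wells lay inside the range of the others. TTK was the lowest kinase well but for TAOK3, and CHEK1 and MELK ranked 5 and 9 from the lowest. In raw counts, TTK had 429, with a 95% exact Poisson interval from 389 to 472 that covers counting error alone, and CHEK1 had 614 (566 to 665). Their total counts of 163833 and 139200 were near the median of 160187 of the other wells. The TTK level was 67.3-fold below the median of the others. Both controls were below their own negative-control level in this row (9 and 18 raw counts against 25.9 and 22.7), so a fold against them is a lower bound, taken here from that level. TTK was at least 13.7-fold above the controls by this bound, and the construct was counted in every one of the 8 wells.

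**Figure D1:**
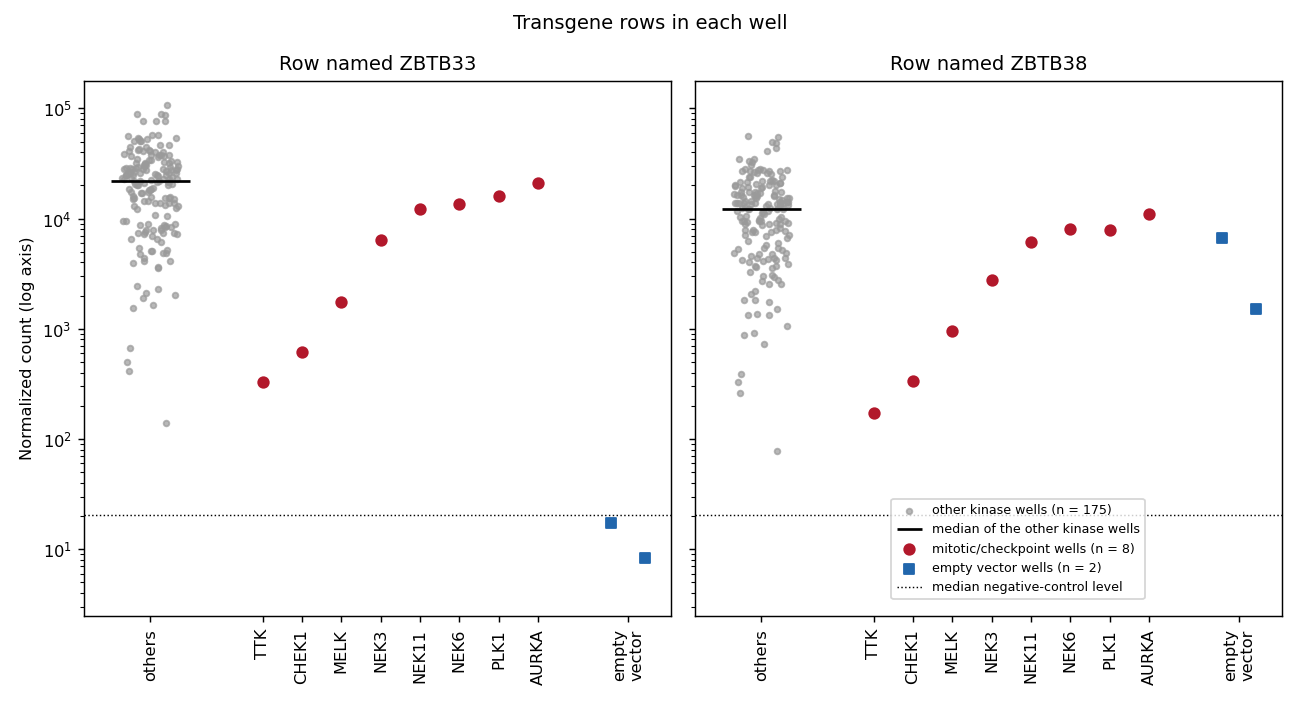
Normalized counts, on a log axis, of the rows named ZBTB33 and ZBTB38 in the other kinase wells, the 8 mitotic and checkpoint wells ordered by their ZBTB33 level and 2 empty vector wells. TTK, CHEK1 and MELK lie at the foot of the kinase wells in both rows, and the controls are near background in ZBTB33 and not in ZBTB38.

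The ZBTB38 row gave nearly the same order. TTK was again lowest, with 225 raw counts. In normalized counts the row was at 337 in CHEK1, 956 in MELK, 2751 in NEK3, 6195 in NEK11, 7927 in PLK1, 8116 in NEK6 and 11057 in AURKA, against a median of 12304 in the other wells. TTK, CHEK1 and MELK were thus below both controls in this row, and NEK11, PLK1, NEK6 and AURKA were above the lower control by 4.11-fold to 7.33-fold. The ratio of the ZBTB33 to the ZBTB38 row was 1.69 to 2.31 in the 8 wells and had a median of 1.80 in the others, so both rows were low together. Over all kinase wells, Spearman's rho between the rows was 0.98, and after the mean of each block of 12 sample numbers was taken out it was 0.99. This describes rows of the same lanes, under the same scaling.

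Whether the 8 wells as a group had less of the construct was tested with edgeR's quasi-likelihood test over all 58 rows. The log2 fold difference against the other kinase wells was -1.44 (SE 0.53, adjusted p = 0.111) for ZBTB33 and -1.54 (SE 0.54, adjusted p = 0.111) for ZBTB38. Neither passed 0.05 after Benjamini-Hochberg adjustment. An exact permutation test of the rank sum gave an adjusted p = 0.0929 for both, with all 8 wells below the median of the others. The call depended on the method. On the log2 scale with limma and a pseudocount of 1, the differences were -1.95 and -2.04 (adjusted p = 0.0159 for both), and DESeq2 with the same scaling gave -1.44 and -1.54 (adjusted p = 0.0274 for both).

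The sample numbers fall in blocks of 12, and the level of the construct also varied between blocks. TTK (number 37) and MELK (number 43) were below all 10 other kinase wells of their block, whose median was 11308, and CHEK1 (number 26) was below all 11 of its block, whose median was 14396. NEK6 was above the median of its block (6090), AURKA lay near that of its own (20577), and the remaining wells were below theirs, so that 6 of the 8 were below their block's median. With the block in the edgeR fit, the differences were -1.05 for ZBTB33 and -1.11 for ZBTB38 (adjusted p = 0.511 for both). The headers name no cartridge, so a block is only a run of sample numbers.

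Among the subsets, the 3 NEK wells had a log2 fold difference of -1.18 in ZBTB33 (edgeR adjusted p = 0.941) and the 5 other wells one of -1.61 (edgeR adjusted p = 0.0990). The difference between these subsets was not tested. PLK2, PLK3 and PLK4, relatives of PLK1 that the rule leaves among the other kinase wells, were at 18517, 43246 and 4382 in this row. Only PLK4, a kinase of centriole duplication, was among the lower wells, at rank 20 from the lowest. When the 3 were counted with the 8, the difference was -0.96 (edgeR adjusted p = 0.284).

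No endogenous row passed the test between the 8 wells and the other kinase wells. In the edgeR test 0 of 58 rows (0%) had an adjusted p under 0.05. Before adjustment 14 rows (24.1%) had a p under 0.05, all of them lower in the 8 wells than in the other kinase wells. DESeq2 with the same scaling and limma each called 2 rows, ZBTB33 and ZBTB38, and no other. The exact permutation test called 0, with 15 rows before adjustment. The median log2 fold difference over the 58 rows was -0.27, and -0.12 with blocks of 12 sample numbers in the edgeR fit. It was -0.042 with the size factors of DESeq2, -0.16 with TMM factors and -0.36 when only the positive controls were used. With the DESeq2 size factors, which moved the median of all rows up by 0.22, again 14 rows had a p under 0.05 before adjustment and 0 an adjusted one. They were partly different rows. The 7 lower ones (ADAM2, CTAG1B, MAEL, MAGEA12, ZBTB33, ZBTB38 and ZBTB4) were also among the first 14, and the 7 higher ones (ATAD2, KCNA1, PLA2R1, PPM1D, Tet1, Tet2 and Tet3) were all above the negative-control level. All of the first 14 rows stayed below 0 under this scaling. Over the 58 rows, 51 were below 0 with the housekeeping scaling and 35 with these size factors.

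**Figure D2:**
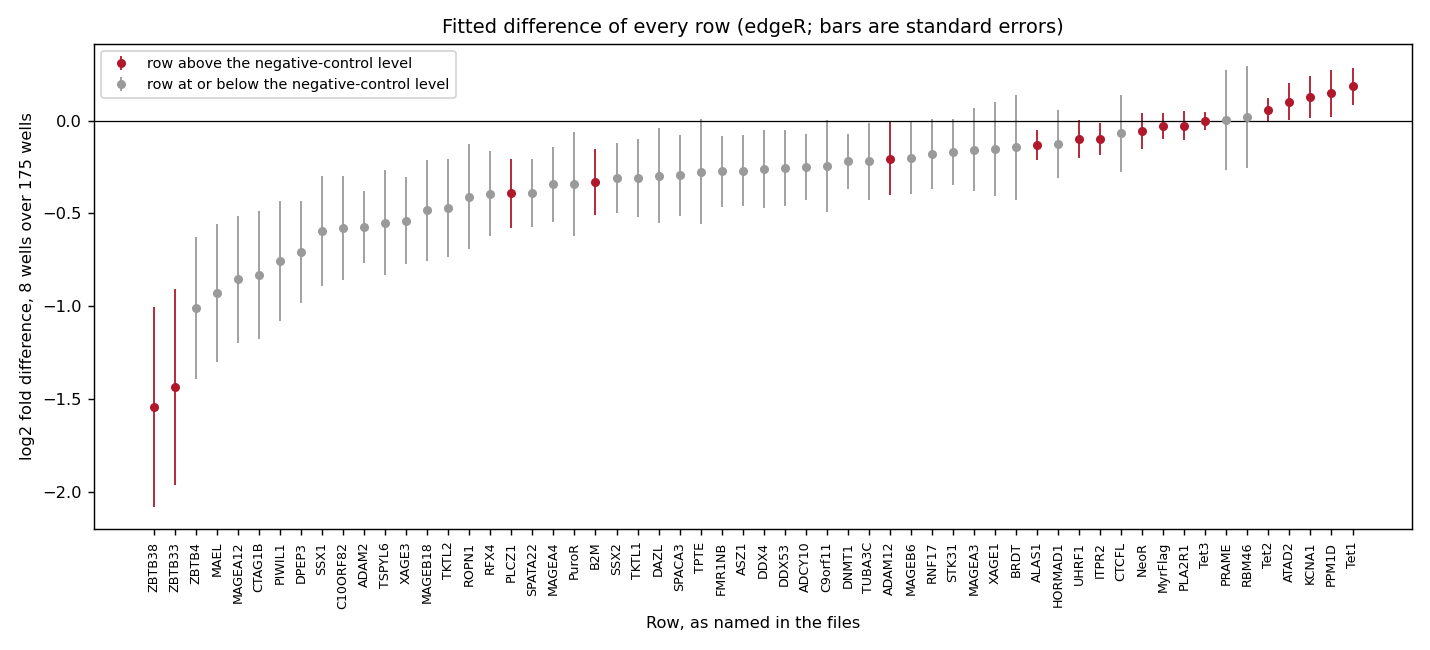
Fitted log2 fold difference (8 mitotic and checkpoint wells over the other kinase wells) of the 58 rows, ordered by size, with standard errors as bars. The 2 construct rows lie lowest at -1.54 and -1.44, rows at or below the negative-control level follow, and most rows above that level lie near 0.

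ADAM12, a metalloprotease of placenta and growing mesenchyme, was among the few tissue-restricted genes counted in these cells. It was at 51.6 normalized counts in CHEK1, 45.3 in NEK3, 42.9 in NEK6, 39.5 in TTK, 39.1 in NEK11, 37.8 in MELK, 36.2 in AURKA and 32.8 in PLK1. The controls were at 33.2 and 44.4, and the other kinase wells had a median of 42.6 and a maximum of 478. None of the 8 wells was outside the range of the others, and 5 of 8 lay within their quartiles. The fitted difference was -0.21 (SE 0.20, edgeR adjusted p = 0.433). On the log2 scale the SD over the 8 wells was 0.20, against 0.41 over the other wells.

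ATAD2, a chromatin ATPase linked to E2F and expressed with proliferation, was the tissue-restricted row most directly tied to the cell cycle. It was at 214 in CHEK1, 212 in PLK1, 180.5 in MELK, 177.1 in NEK6, 173.3 in TTK, 172.1 in AURKA, 168.96 in NEK11 and 148.8 in NEK3, and at 175.3 and 217 in the controls. The median of the other kinase wells was 167.7, and 7 of the 8 wells lay above it. The fitted difference was 0.10 (SE 0.10, edgeR adjusted p = 0.433). With the DESeq2 size factors it was 0.32 (DESeq2 unadjusted p = 0.0355, adjusted p = 0.169). PLK1 had the highest raw count, 278 (246 to 313 by the same interval), in the lane with the highest total count of the 8. For the 3 NEK wells alone the fitted difference was -0.034.

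ALAS1, the first enzyme of heme synthesis, was between 355 in PLK1 and 534 in CHEK1. The controls were at 421 and 500, and the other wells had a median of 457. Only CHEK1 was above that median. The fitted difference was -0.13 (SE 0.082, edgeR adjusted p = 0.274), and with the DESeq2 size factors it was 0.090. PLCZ1, the sperm phospholipase that starts egg activation, was at 16.02 to 29.8 normalized counts against a median of 25.7. Its raw count was above the negative-control level in only 3 of the 8 lanes, and its fitted difference was -0.39 (SE 0.19, edgeR adjusted p = 0.180).

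The rows named after DNA methylation and cell-cycle genes showed no called difference. All of them but ATAD2 carry names that could not be taken as identities, so these lists group names rather than known genes. Of the 4 rows of the cell-cycle list (ATAD2, UHRF1, DNMT1, PPM1D), 2 had a fitted difference above 0 and 2 below, with a median of 0.00055 against -0.27 over all rows, and 0 of 4 were called. The 15 rows above the negative-control level other than the construct rows, which include 3 of these 4, had a median of -0.029. The row named UHRF1 was at 977 in CHEK1 and 871 in NEK6 and between 589 and 707 in the other 6 wells, with a median of 762 in the other kinase wells. The row named PPM1D was highest in CHEK1, at 206, and lowest in PLK1, at 121.3, against a median of 140. The row named DNMT1 was at 11.2 to 16.8 and above the negative-control level in 0 of the 8 lanes. Among the 5 rows of the DNA methylation list (UHRF1, DNMT1, Tet1, Tet2, Tet3), 2 had a fitted difference above 0, 3 below, and 0 were called. The row named Tet1 had the largest difference above 0 of all rows, 0.18 (SE 0.10, edgeR adjusted p = 0.228), with 296 in AURKA, 425 in NEK6 and NEK11 and 339 to 395 in the other 5 wells. Its difference was 0.28 with TMM factors (edgeR adjusted p = 0.128) and 0.38 with the DESeq2 size factors (DESeq2 unadjusted p = 0.00682, adjusted p = 0.0777). The rows named Tet2 and Tet3 ranged from 623 to 749 and from 1602 to 1897, with SDs of 0.10 and 0.079 on the log2 scale.

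**Figure D3:**
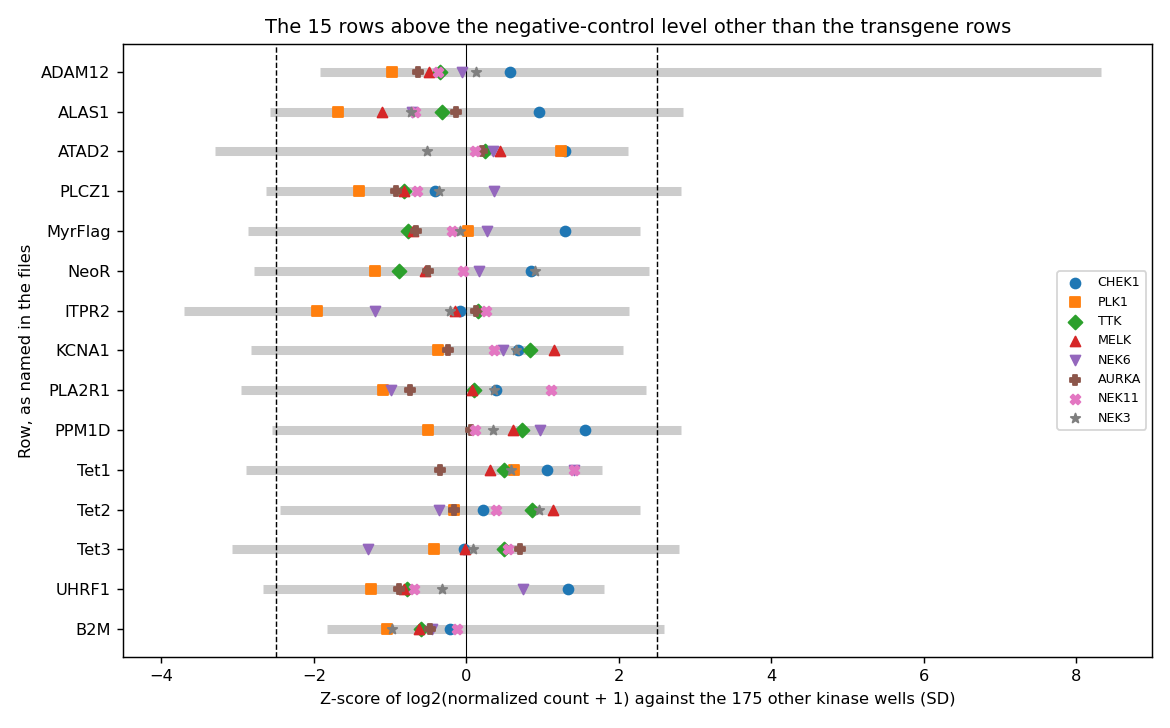
Z-scores of the 8 wells, in SD of the other kinase wells, for the 15 rows above the negative-control level other than the construct rows. Grey bars show the range of the other wells and dashed lines mark 2.5 SD. All points of the 8 wells lie between the dashed lines, and CHEK1 and PLK1 are most often at the edges of the 8.

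Nearly all counts of the germline and cancer/testis rows were at or below the negative-control level in these wells. Over the 38 tissue-restricted rows below that level by the median, 3 of 304 well/row counts (0.987%) passed the level of their own lane, and raw counts were between 1 and 24. The 3 were 2 of FMR1NB and 1 of DDX53. In the other kinase wells 576 of 6650 such counts (8.66%) passed, and in the 2 controls 0 of 76. By lane, 0 to 2 of the 38 rows passed in the 8 wells and 0 to 19 in the others, with medians of 0 and 2 (exact permutation test of the rank sum, two-sided, p = 0.0108, and adjusted p = 0.0647 over the 6 lane measures compared), a measure chosen after the values were seen. The median of the level itself was 22.4 raw counts in the 8 wells and 20.3 in the others. Of these 38 rows, 36 had a fitted difference below 0 and 2 above, with a median of -0.30 against -0.27 over all 58 rows and 0 called. The MAGE family (5 rows) had a median of -0.34, the other cancer/testis antigens (7 rows, among them PRAME, CTAG1B and SSX1) one of -0.31 and germ cell RNA genes (6 rows, among them DDX4, DAZL and PIWIL1) one of -0.27. Meiosis and germline chromatin genes (6 rows, among them HORMAD1 and BRDT) were at -0.27, sperm structure genes (7 rows) at -0.39, testis enzymes (5 rows) at -0.31 and placenta genes (ADAM12 and XAGE3) at -0.37. None of these lists had a called row in either direction. These medians lay close to that of all 58 rows, most of which are these 38 weak rows. The 15 rows above the negative-control level other than the construct rows had a median of -0.029.

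Most of the rows with a p under 0.05 before adjustment were below the negative-control level and followed the level of the construct across the screen. Of the 14 rows, 3 were above the negative-control level (ZBTB33, ZBTB38 and PLCZ1). Over all kinase wells, Spearman's rho with the ZBTB33 row was 0.14 to 0.83 in the 12 rows other than the construct rows and above 0.5 in 8 of them. The 5 highest values were 0.83 for MAEL, 0.79 for ZBTB4, 0.77 for CTAG1B, 0.73 for MAGEA12 and 0.71 for PIWIL1. Within blocks of sample numbers these 5 were 0.80, 0.78, 0.75, 0.70 and 0.69. Over the 8 wells alone the 12 rows ran from -0.40 to 0.69 and were above 0.5 in 4. MAEL, ZBTB4, CTAG1B, MAGEA12 and PIWIL1 had 0.69, 0.43, 0.57, 0.60 and 0.55 there, whereas DPEP3 had 0.24 and SSX1 -0.40 (0.52 and 0.60 over all kinase wells). These correlations describe rows that share lane, depth and scaling. MAEL, a piRNA pathway gene of germ cells, had 3 to 9 raw counts in the 8 wells, and its fitted difference of -0.93 (edgeR adjusted p = 0.111) was 0.10 when the log2 level of ZBTB33 was a covariate. The differences of CTAG1B, MAGEA12 and PIWIL1 were -0.83, -0.86 and -0.76, and with the covariate they were 0.020, -0.037 and -0.016. With the covariate 1 of the rows other than ZBTB33 had a p under 0.05 before adjustment, and the median over all rows was -0.051. What links these rows to the construct was not tested.

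ADAM2, a sperm surface protein, was the 1 row with a p under 0.05 before adjustment when the covariate was in the fit, and it was called under no setting. It was at 6.87 normalized counts in PLK1, 9.30 in NEK3, 12.2 in TTK, 12.9 in MELK and CHEK1, 13.6 in AURKA, 16.2 in NEK11 and 18.6 in NEK6, against a median of 18.6 in the other wells and 11.1 and 11.6 in the controls. Only NEK6 was above the median of the others. The fitted difference was -0.57 (SE 0.19, edgeR adjusted p = 0.111). It was -0.46 with the covariate (edgeR adjusted p = 0.961), -0.48 with blocks (edgeR adjusted p = 0.281), -0.35 with the DESeq2 size factors (DESeq2 adjusted p = 0.179) and -0.32 with limma and a pseudocount of 10 (adjusted p = 0.148). The raw count was 8 to 17, below the negative-control level in all 8 lanes, and in 73 of the other kinase lanes it was above that level.

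**Figure D4:**
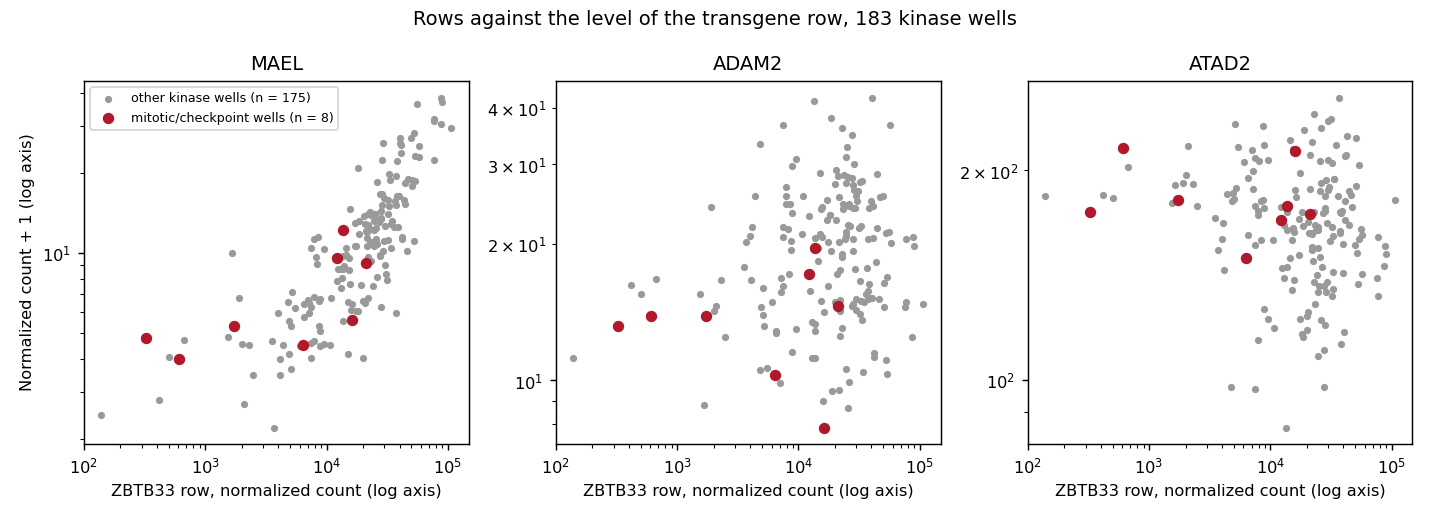
Normalized counts (+ 1) of MAEL, ADAM2 and ATAD2 against the normalized count of the ZBTB33 row in all kinase wells, on log axes, with the 8 mitotic and checkpoint wells in red. MAEL follows the ZBTB33 row over the wells (Spearman's rho of 0.83), while rho is 0.14 for ADAM2 and -0.15 for ATAD2.

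Single wells were compared with the others by Z-scores, the distance of log2(normalized count + 1) from the mean of the other wells in units of their SD. In the 8 wells, 6 of 464 well/row pairs were beyond 2.5 SD, 1.29%, against 1.21% of the 10150 pairs of the other wells. All 6 were below the mean and 0 were above it. In the other wells 0.837% were below by as much. The pairs were ZBTB33 and ZBTB38 in TTK (-3.77 for both) and in CHEK1 (-3.17 and -3.13), RBM46 in TTK (-2.71) and ADAM2 in PLK1 (-2.54). RBM46, a germ cell RNA-binding protein, rested on 1 raw count in TTK (0.0253 to 5.57 by the exact Poisson interval), and ADAM2 on 9 in PLK1. Apart from the construct rows, no count above background in any of the 8 wells was beyond 2.5 SD.

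The highest Z-scores in each well outside the construct rows were small. They were 2.19 for RBM46 in CHEK1, 1.63 for MAGEB6 in NEK6, 1.52 for XAGE1 in NEK3, 1.41 for Tet1 in NEK11, 1.24 for ATAD2 in PLK1, 1.15 for KCNA1 in MELK, 0.86 for Tet2 in TTK and 0.70 for Tet3 in AURKA. The RBM46 value of CHEK1 was shared by its neighbors. In the 12 kinase wells numbered 25 to 36, RBM46 had a median of 15 raw counts, as many as in CHEK1, against 5 in the rest. The negative control NEG_H had a median of 55 counts there, 46 in CHEK1 and 3 in the rest. TPTE, TSPYL6 and DAZL were also above the 95th percentile of the rest in 9 to 11 of these 12 wells. Without wells 25 to 36, 0 rows were called by edgeR and 17 had a p under 0.05 before adjustment.

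The median over the tissue-restricted rows followed the scaling of the wells. Their median Z-score was 0.63 in NEK6, -0.15 in NEK11, -0.22 in NEK3 and CHEK1, -0.61 in AURKA, -0.72 in MELK, -1.02 in TTK and -1.18 in PLK1. In PLK1 40 of the 42 rows were below the mean, and in NEK6 8 were. The divisor applied to the counts was lowest in NEK6 (0.54) and highest in PLK1 and TTK (1.31 and 1.32). Spearman's rho between divisor and median Z-score was -0.90 over the 8 wells and -0.42 over all kinase wells, both as a description of values that share the divisor. Its median was 1.08 in the 8 wells and 1.05 in the others (two-sided exact permutation test of the rank sum, p = 0.944). The mean of the negative controls on the normalized scale was 9.20 in the 8 wells and 8.63 in the others at the median (p = 0.341 by the same exact test). The median normalized count of the 38 weak tissue-restricted rows was 7.47 in the 8 wells and 9.36 in the others at the median (p = 0.0536 by the same exact test, adjusted p = 0.161 over the 6 lane measures). In the controls this count was 4.61 and 6.75, below both medians. Whether background differed was thus not settled.

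**Figure D5:**
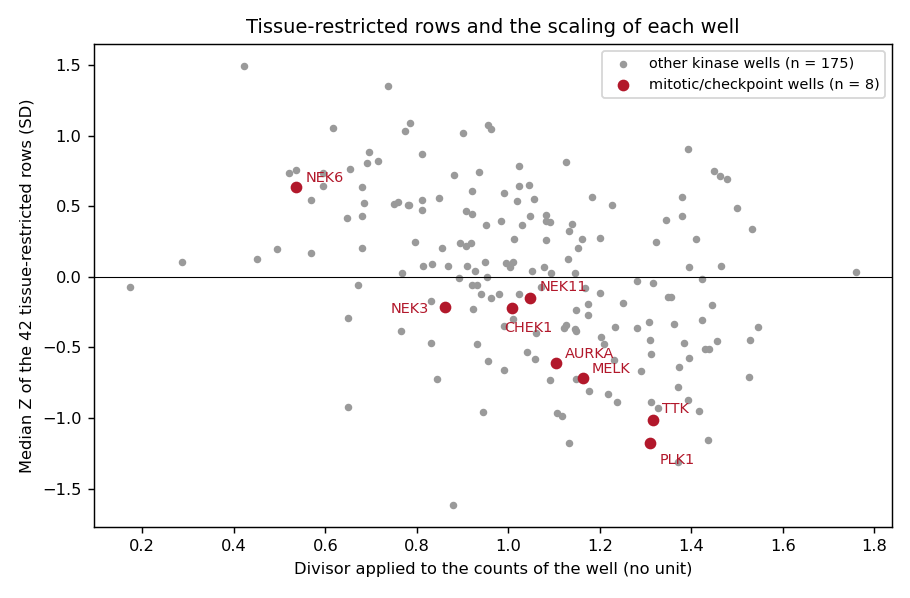
Median Z-score of the 42 tissue-restricted rows of each kinase well against the divisor that scaled its counts, with the 8 mitotic and checkpoint wells named. NEK6, with a divisor of 0.54, lies above 0, and PLK1 and TTK, with divisors of 1.31 and 1.32, lie lowest of the 8.

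The housekeeping genes were compared with the positive controls alone as scale. The fitted difference was -0.12 for PGK1 (a glycolytic enzyme), -0.11 for TBP (a general transcription factor) and -0.066 for TUBB2A (a tubulin), with edgeR adjusted p-values of 0.355, 0.288 and 0.576. B2M, the light chain of MHC class I, was at -0.45 (SE 0.22, edgeR adjusted p = 0.151). With all scaling steps B2M was between 28175 in PLK1 and 37926 in NEK11, at or under the median of 38077 of the other wells in all 8, with a fitted difference of -0.33 (SE 0.18, edgeR adjusted p = 0.228). The other wells reached 90472. None of the 4 genes was called, and 1 of 4 had a p under 0.05 before adjustment. Less RNA in the lane, fewer cells and less RNA per cell cannot be told apart here, and scaling by the housekeeping genes removes all of these.

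Against the 2 empty vector wells, 1 of 58 rows (1.72%) was called. It was ZBTB33 (edgeR adjusted p = 2.64e-05), with all 8 wells above both controls. The fitted log2 fold difference of 9.45 is set against 2 controls below their negative-control level and is no measured size. Against that level the mean of the 8 wells was at least 394-fold higher. The row named ZBTB4 was at 2.28 to 9.55 in the 8 wells and at 13.8 and 23.2 in the controls, with no overlap, and had a difference of -1.80 (SE 0.66, edgeR adjusted p = 0.215). All its counts were at or near background. Of the 14 rows with an unadjusted edgeR p under 0.05 against the other kinase wells, only ZBTB4 was fitted below the controls. CTAG1B, MAGEA12, PIWIL1, ADAM2 and MAEL were fitted above them, at 0.80, 0.47, 0.18, 0.15 and 0.10, each with an edgeR adjusted p of 0.953. ATAD2, ALAS1 and ADAM12 had differences of -0.12, -0.11 and 0.063 against the controls, each with an edgeR adjusted p of 0.953. With 2 controls, differences of this size were not detectable.

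In the well counted rows the 8 wells were somewhat nearer to each other than to other kinase wells, and most had another kinase as their nearest lane. Over the 12 rows with a median above 100 counts outside the construct rows, the root mean square log2 difference had a median of 0.23 between pairs of the 8 wells, 0.30 between these and other kinase wells and 0.34 between pairs of other wells, and the 2 controls differed by 0.24. TTK and MELK, from the same block, were near each other (0.071). The nearest lane was another of the 8 only for TTK, and another of the 8 was among the 3 nearest lanes for MELK, NEK11 and AURKA as well. In the remaining wells the nearest of the 8 ranked 7 (NEK3) to 37 (CHEK1). For CHEK1 and NEK6 a control was nearer (0.16 and 0.19) than any other of the 8 (0.22 for both). The same held for NEK11 (0.15 against 0.16) and NEK3 (0.13 against 0.16). For TTK, MELK, AURKA and PLK1 another of the 8 was nearer (0.071, 0.071, 0.13 and 0.23) than either control (0.10, 0.088, 0.15 and 0.25). These distances were not tested. CHEK1 was nearest to CLK3 (0.038), PLK1 to ILK (0.14), NEK6 to CALM2 (0.11), AURKA to MKNK1 (0.096), NEK3 to CAMK4 (0.10), MELK to MAP2K5 (0.060) and NEK11 to a control well (0.15). For CHEK1 and NEK6 the 5 nearest lanes were all of their own block. PLK1 carries sample number 3, as does the second PIK3CG lane, which differed from PLK1 by 0.16 and from the first PIK3CG lane by 0.31. Which sample that second lane holds was not settled, and it was not used.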

How the data were processed

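The authors counted RNA with the Nanostring Flex nCounter system. The authors' files hold the deposited raw counts of each lane, not normalized, and a series table whose signal is the authors' count multiplied by 1 factor per lane, except for 8 lanes left as counts, none among the 8 wells. From the raw counts, each lane was divided by a geometric mean over its 6 positive controls, then by one over PGK1, TBP and TUBB2A. Groups came from the titles, with 8 wells against 175 other kinase wells, together 183 of 197 lanes. Rows were compared with edgeR 4.0.16 in R 4.3.3 (quasi-likelihood test, scaling as offset, Benjamini-Hochberg over all 58 rows, threshold 0.05), with DESeq2 1.42.0, limma 3.58.1 and an exact permutation test of the rank sum (scipy 1.17.1) as alternatives. The log2 scale used a pseudocount of 1. Other alternatives covered scaling, filters, blocks of 12 sample numbers, single wells left out and related kinases. Scripts were tested on simulated data. The members and gene lists were chosen with earlier results of these data known. Named genes were called rows, the 5 largest differences above background, construct and housekeeping rows, ADAM12, ALAS1, ATAD2, rows named UHRF1, DNMT1, PPM1D and Tet, and pairs beyond 2.5 SD. Rows of the germline lists, the highest Z-score of each well and nearest lanes were named after their values were seen. Probe sequences were not used here. Total counts limit the precision of weak rows.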

Additional observations from a re-analysis of the deposited data

Results flagged for a closer look

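In 2 of the 58 rows, 1 of the 8 wells lay far from the other 7, by a gap over range above Dixon's 95% critical value for 8 samples. Chance flags about 1 in 20 such groups, so 2 of 58 is no more than chance gives. SSX1, a cancer/testis antigen, was at 11.2 normalized counts in NEK6 (6 raw counts) and between 2.72 and 4.96 in the other wells. TSPYL6, a testis gene of the nucleosome assembly family, was at 15.9 in CHEK1 (16 raw counts) and between 2.32 and 5.59 in the others. Both counts were below the negative-control level of their lane, NEK6 was the lane with the smallest divisor, and TSPYL6 had a median of 23 raw counts in wells 25 to 36.

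A signal also appeared in a probe outside the comparisons. The negative control NEG_H had 46 counts in the CHEK1 well, against 3 and 4 in the controls, and wells 25 to 36 shared it. Its part in the CHEK1 values was not tested.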

How the results depend on the processing

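The count of 0 rows called against the other kinase wells was 2 with the deposited table and limma, DESeq2 with the housekeeping factors, limma with a pseudocount of 1 and limma with a pseudocount of 10, and 0 under the other 22 alternatives. Under these 4 settings ZBTB33 was at -1.93, -1.44, -1.95 and -1.94 and ZBTB38 at -2.02, -1.54, -2.04 and -2.02, each called. Under all alternatives that could be fitted ZBTB33 stayed below 0 (-1.95 to -0.96) and so did ZBTB38 (-2.04 to -0.070, the last with blocks and ZBTB33 as covariates). Leaving out each of the 8 wells gave -1.74 to -1.25 and -1.85 to -1.36, 0 called rows and 9 to 18 rows with a p under 0.05 before adjustment, which was 14 with all 8 wells, 5 with blocks, 0 in the NEK wells and 22 in the others. Against the controls 2 rows were called with the DESeq2 size factors and with the second control lane added, and 1 otherwise. It was also 1 without either control (smallest adjusted p = 0.0102 and 0.0223), where the lone control well is assumed to vary like the other groups. The 6 pairs beyond 2.5 SD were 2 at 3.5 SD, 2 without the construct rows, 3 to 6 with each well left out (3 without TTK) and 4 to 8 otherwise. Uncalled rows changed sign. With ZBTB33 as a covariate, MAEL was at 0.10 and CTAG1B at 0.020. With blocks and covariate together, chosen after seeing the data, MAEL was at 0.17, CTAG1B at 0.18, MAGEA12 at 0.11, ZBTB4 at 0.10, PIWIL1 at 0.043 and ALAS1 at 0.0024. ALAS1 was at 0.090 with the DESeq2 size factors and ATAD2 at -0.034 in the NEK wells. The cause was not tested. Housekeeping genes had 0 calls with limma too, with 0 of 4 under an unadjusted p of 0.05, against 1 of 4 with edgeR. No paired analysis was possible because the kinase wells carry no replicate numbers shared between the groups compared. Raw counts of 1 to 24 in the 38 weak tissue-restricted rows limit the precision of each single well.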
